A study of Mus musculus with 8 samples.

Results

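Signal of 10 genes known from nerve cells was followed in mouse pre-iPSCs, cells that stalled on the way from a somatic cell to an induced pluripotent stem cell. The genes are Neurod1, Elavl2, Elavl3, Elavl4, Stmn2, Dcx, Nefl, Nefm, Calcb and Arpp21, and the platform annotation gives them 28 of the 45101 probe sets on the array, where 18193 genes were measured in all. They were chosen by values of these same arrays, for their signal in control cells, for lower signal after Cbx3 siRNA and, for Neurod1, for higher signal after methyltransferase siRNA. Their values are therefore a description, and where some of them are counted among the genes a fit called, nothing is read from it.

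All 8 arrays come from pre-iPSCs grown in embryonic stem cell medium and exposed to siRNA for 3 days. In the Cbx3 group (n = 3) the siRNA targets Cbx3, which encodes HP1 gamma, a protein that binds methylated H3K9 in chromatin. In the 3XHMT group (n = 2) siRNAs were combined against the H3K9 methyltransferase genes Ehmt1, Ehmt2 and Setdb1. In the control group (n = 3) the siRNA targets luciferase, which mouse cells lack. The labels name no strain, clone or founder cell type, and they speak of biological replicates but do not tell what was repeated, so the spread between arrays may be partly technical.

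Most of these genes are silent outside the nervous system and are switched on as a precursor leaves the cell cycle and becomes a neuron. In non-neuronal cells many neuronal genes are held off by the repressor REST and its partner proteins, and by histone modifications such as H3K9 methylation. Neurod1 is a basic helix-loop-helix transcription factor that drives neuronal and endocrine differentiation and binds the E box, written CANNTG. Elavl2, Elavl3 and Elavl4 encode the neuronal Hu proteins, which bind AU-rich RNA and steady it. Stmn2 and Dcx encode proteins that act on microtubules, Nefl and Nefm encode the light and medium neurofilament chains, Calcb encodes a calcitonin gene-related peptide, and Arpp21 encodes a cAMP-regulated phosphoprotein of striatal neurons that is also made in thymocytes.

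The RefSeq promoter table for GRCm38.p6 held 6 of the 10 genes, with 23 start sites, and no entry for Stmn2, Nefl, Nefm or Calcb. The 250 bases upstream of the first listed start are shown for Neurod1, the member that was higher in 3XHMT cells, and for Elavl2 and Arpp21, which were lower in Cbx3 cells. All 3 genes lie on the minus strand, and the bases are written 5′ to 3′ along it. They span chr2:79456637-79456886 for Neurod1, chr4:91399985-91400234 for Elavl2 and chr9:112233723-112233972 for Arpp21. Capitals mark matches to the motifs searched.
Neurod1: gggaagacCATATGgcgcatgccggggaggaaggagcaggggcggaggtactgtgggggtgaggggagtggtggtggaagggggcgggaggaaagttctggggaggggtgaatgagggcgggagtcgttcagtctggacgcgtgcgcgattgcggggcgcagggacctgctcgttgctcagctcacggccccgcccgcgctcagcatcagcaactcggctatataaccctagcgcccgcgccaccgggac
Elavl2: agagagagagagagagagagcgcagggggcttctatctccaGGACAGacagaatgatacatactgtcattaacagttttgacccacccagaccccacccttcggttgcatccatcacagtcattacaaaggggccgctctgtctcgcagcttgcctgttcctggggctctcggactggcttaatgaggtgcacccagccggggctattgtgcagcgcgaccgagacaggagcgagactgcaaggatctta
Arpp21: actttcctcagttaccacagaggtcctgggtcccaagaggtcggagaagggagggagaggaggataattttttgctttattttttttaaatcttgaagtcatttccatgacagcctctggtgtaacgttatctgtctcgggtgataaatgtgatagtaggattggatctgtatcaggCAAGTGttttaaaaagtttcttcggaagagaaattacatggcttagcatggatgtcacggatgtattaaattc

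The motifs searched on both strands were the E box CANNTG, the TATA box TATAAA, and TCAGCACC and GGACAG, the left and right parts of the site bound by REST. None of the 4 overlapped another in the sequences shown. The Neurod1 sequence held 1 E box, CATATG, 242 to 237 bases upstream of the start. The Arpp21 sequence held 1 E box, CAAGTG, 73 to 68 bases upstream, and the Elavl2 sequence held 1 copy of GGACAG, 209 to 204 bases upstream. Over 32851 promoter windows of the same length in the table, 66.2% held an E box, 12.4% TATAAA, 1.3% TCAGCACC and 18.7% GGACAG. The number of CG dinucleotides was 22 for Neurod1, 10 for Elavl2 and 5 for Arpp21, where the median of all windows was 6.0. Elavl2 has 6 listed starts and Arpp21 has 9, and the arrays do not show which is used.

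The deposited values are log2 signals, so a difference of 1 is a doubling. Array medians lay between 5.87 and 5.90. Cbx3 signal in the Cbx3 arrays was at 37.9% to 43.9% of control on the 3 bright probe sets, of which 2 passed in limma over all probe sets (adjusted p = 0.0453 and 0.0465, and 0.0525 for the other). In the 3XHMT arrays the brightest probe sets of Setdb1, Ehmt2 and Ehmt1 were at 63.2%, 66.8% and 79.6% of control, and none of these passed (adjusted p = 0.556, 1.00 and 1.00). A control probe set for 18S ribosomal RNA divided the arrays into 3 sets that cut across the groups. Cbx3 1 and control 1 had signals of 11.50 and 11.22. Cbx3 2, 3XHMT 1 and control 2 lay between 12.57 and 12.82, and Cbx3 3, 3XHMT 2 and control 3 between 9.98 and 10.17. Differences between arrays within these sets are given beside the pooled ones.

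The label of the gene set was checked first, that is, whether these genes are expressed in pre-iPSCs. As a guide to the signal of silent genes, the 43 probe sets of olfactory receptors, which few tissues express, had mean control signals of 2.72 to 6.51, with a 95th percentile of 5.52. Probe sets differ in affinity, so this is a guide and not a threshold. Of the 28 probe sets, 9 lay above the highest of them in control cells, 4 lay between that and the 95th percentile, and 15 lay at or below the 95th percentile. The 9 belong to 5 genes: Elavl2, Stmn2, Nefl, Calcb and Arpp21. No probe set of Neurod1, Elavl3, Elavl4, Dcx or Nefm had control signal above the olfactory receptor range, so for these the data do not show expression in control pre-iPSCs. A mixed culture in which few cells express a gene and a culture in which each cell holds little of its RNA cannot be told apart here.

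Among genes that define neurons, Snap25, a protein of synaptic vesicle fusion, had a control signal of 2.82 ± 0.02 (SD, n = 3), and Tubb3, neuronal tubulin, a signal of 4.94 ± 0.41. Mapt, which encodes tau, stood at 8.56 ± 0.21 and Map2 at 8.24 ± 0.78. Pou5f1, the pluripotency factor Oct4, was at 12.99 ± 0.34 and Nanog, which marks completed reprogramming, at 5.13 ± 0.27. The astrocyte marker Gfap read 6.01 ± 0.14, the myelin gene Mog 2.93 ± 0.06 and the thymocyte gene Rag1 2.94 ± 0.08. Mog and Rag1 do not stand for other markers of these cell types. In control cells the oligodendrocyte and Schwann markers Mbp, Cnp and Mag read 11.20 ± 0.31, 7.96 ± 0.20 and 5.72 ± 0.14. The thymocyte markers Cd4, Cd3e and Cd3g read 6.63 ± 0.11, 6.23 ± 0.13 and 3.85 ± 0.09.

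**Figure D1:**
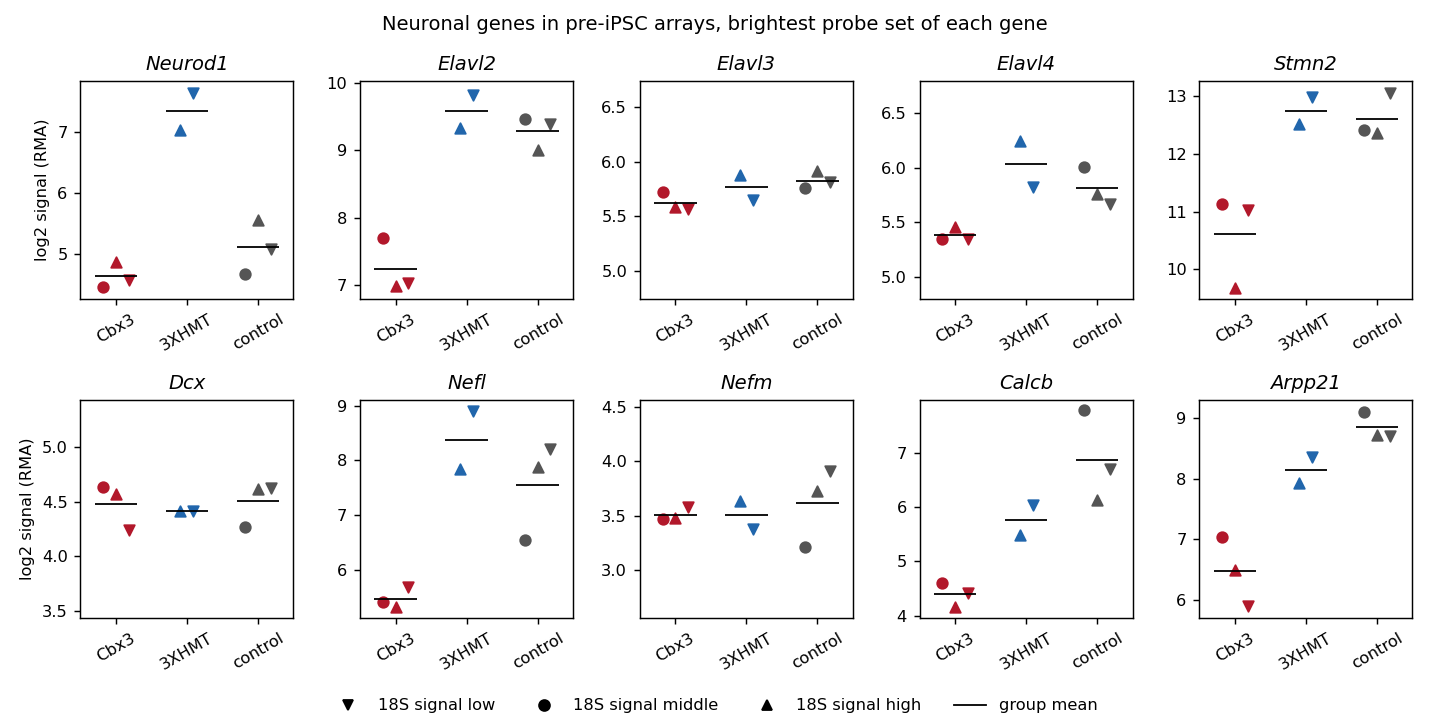
Log2 signal (RMA) of the brightest probe set of each of the 10 genes in Cbx3, 3XHMT and control arrays, 1 point per array, with black lines at group means and marker shapes for the 3 sets of arrays by 18S signal; the vertical axes differ between panels. Elavl2, Stmn2, Nefl, Calcb and Arpp21 were lower in every Cbx3 array than in any control array, with group means about 2 log2 units apart. Neurod1 stood above control only in the 3XHMT arrays, and Dcx and Nefm overlapped throughout.

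Neurod1, the only transcription factor of the set, was higher after methyltransferase siRNA and not after Cbx3 siRNA. Its brighter probe set, 1426413_at, read 4.45, 4.87 and 4.57 in the Cbx3 arrays, 7.04 and 7.65 in the 3XHMT arrays, and 4.67, 5.56 and 5.08 in the control arrays. Both 3XHMT arrays lay above all others, and the Cbx3 and control arrays overlapped. The control signal was at the level of silent genes, so the ratio is to a signal not shown to come from Neurod1 RNA. The difference of 3XHMT from control was 2.24 ± 0.28 (SE) on the log2 scale, a signal ratio of 4.74, and that of Cbx3 from control was -0.48 ± 0.25.

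The dimmer Neurod1 probe set, 1426412_at, read 3.66, 3.76 and 3.87 in the Cbx3 arrays, 6.56 and 7.86 in the 3XHMT arrays, and 4.16, 4.76 and 4.76 in the control arrays. Here all Cbx3 arrays lay below the control arrays, with a difference of -0.80 ± 0.32, at signals within the olfactory receptor range. The 3XHMT difference was 2.64 ± 0.35. Within the 18S sets, the brighter probe set differed between 3XHMT and control by 1.48 in the high set and 2.57 in the low set, so the 2 arrays agree in direction and not in size.

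Of the genes for RNA-binding Hu proteins, Elavl2 had signal above the olfactory receptor range and was lower in Cbx3 cells. Its brightest probe set, 1421882_a_at, read 7.70, 6.99 and 7.03 in the Cbx3 arrays, 9.33 and 9.82 in the 3XHMT arrays, and 9.47, 8.998 and 9.39 in the control arrays. All Cbx3 arrays lay below all others, and 3XHMT overlapped control. The Cbx3 difference was -2.05 ± 0.23, which is 24.2% of the control signal, and the 3XHMT difference was 0.29 ± 0.26.

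The other Elavl2 probe sets did not all behave alike. Of the 5, 4 separated Cbx3 from control without overlap, at 24.2% to 47.6% of control. The remaining one, 1433052_at, read 5.66 ± 0.25 in Cbx3 cells, 5.36 ± 0.27 in 3XHMT cells and 5.58 ± 0.23 in control cells (SD, n = 3, 2 and 3), with a Cbx3 difference of 0.08 ± 0.18. In none of the 5 did 3XHMT and control arrays separate.

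The paralogs Elavl3 and Elavl4 gave little signal. The brightest Elavl3 probe set averaged 5.62 ± 0.08 in Cbx3, 5.77 ± 0.16 in 3XHMT and 5.83 ± 0.08 in control cells, a Cbx3 difference of -0.20 ± 0.11. Its other 2 probe sets differed by 0.15 and 0.08, in the opposite direction. The brightest Elavl4 probe set read 5.35, 5.46 and 5.35 in the Cbx3 arrays, 6.24 and 5.82 in the 3XHMT arrays, and 6.01, 5.76 and 5.67 in the control arrays. The Cbx3 arrays lay below the others without overlap, by -0.43 ± 0.14 from control. On the dimmer Elavl4 probe sets, with Cbx3 differences of -0.14 ± 0.26 and -0.62 ± 0.32, the arrays overlapped. Elavl1, the member of this family made in all tissues, differed by -0.18 between Cbx3 and control (limma adjusted p = 0.873).

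Stmn2, which keeps growing axons supplied with free tubulin, had the brightest probe set of the 10 genes and was lower in all Cbx3 arrays. Probe set 1423281_at read 11.12, 9.68 and 11.03 in the Cbx3 arrays, 12.51 and 12.98 in the 3XHMT arrays, and 12.41, 12.36 and 13.06 in the control arrays. Cbx3 replicate 2 was the lowest, and all Cbx3 arrays lay below all others. The Cbx3 difference was -1.997 ± 0.39, a 3.99-fold lower signal, and it was -1.53 without Cbx3 replicate 2. The other probe set, 1423280_at, read 9.32, 8.80 and 9.42 in the Cbx3 arrays, 11.58 and 11.71 in the 3XHMT arrays, and 10.99, 11.17 and 11.48 in the control arrays. It gave a Cbx3 difference of -2.03 ± 0.19, with less spread. Both 3XHMT arrays lay just above control on this probe set, by 0.43 ± 0.22, and overlapped control on the brighter one, at 0.14 ± 0.43.

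Nefl, the light neurofilament chain, was the most variable in control cells. Probe set 1426255_at read 5.42, 5.33 and 5.69 in the Cbx3 arrays, 7.84 and 8.91 in the 3XHMT arrays, and 6.55, 7.88 and 8.20 in the control arrays. The Cbx3 arrays agreed closely and lay below every control array, of which control replicate 1 was the lowest. The Cbx3 difference was -2.06 ± 0.43, and it was -2.56 without control replicate 1. The 3XHMT difference was 0.83 ± 0.49, and it was 0.29 without 3XHMT replicate 2 and 0.33 without control replicate 1. The second Nefl probe set gave a Cbx3 difference of -1.87 ± 0.52 and a 3XHMT difference of 0.49 ± 0.58.

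Nefm, the medium chain, is the nearest measured gene to Nefl on chromosome 14. Its single probe set averaged 3.51 ± 0.06 in Cbx3, 3.51 ± 0.18 in 3XHMT and 3.62 ± 0.36 in control cells, all within the olfactory receptor range. The Cbx3 difference was -0.11 ± 0.18, and at this signal the probe set does not show whether Nefm RNA was present. Dcx, doublecortin of migrating neurons, had 4 probe sets with control means of 4.26 to 4.51. Their Cbx3 differences were -0.13 to 0.04 and their 3XHMT differences -0.09 to -0.03, and all groups overlapped.

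Calcb, the peptide gene, was lower after both siRNA treatments. Its single probe set read 4.61, 4.16 and 4.41 in the Cbx3 arrays, 5.49 and 6.04 in the 3XHMT arrays, and 7.78, 6.13 and 6.70 in the control arrays. The 3 groups did not overlap, with Cbx3 the lowest and control the highest, though 3XHMT replicate 2 and control replicate 2 differed by less than the spread among control arrays. The Cbx3 difference was -2.48 ± 0.38, or 17.98% of control, and the 3XHMT difference was -1.10 ± 0.43. Control replicate 1 was the highest, and without it the differences were -2.02 and -0.65. The Cbx3 signal lay within the olfactory receptor range.

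Arpp21 showed the same order. Its bright probe set, 1419028_at, read 7.04, 6.50 and 5.90 in the Cbx3 arrays, 7.94 and 8.37 in the 3XHMT arrays, and 9.11, 8.73 and 8.71 in the control arrays, without overlap between groups. The Cbx3 difference was -2.37 ± 0.28, or 19.4% of control, and the 3XHMT difference -0.70 ± 0.31. The Cbx3 mean of 6.48 lay between the 95th percentile and the top of the olfactory receptor range. The other 4 Arpp21 probe sets read 2.80 to 4.41 in control, with Cbx3 differences of -0.06 to 0.02. The lower Arpp21 signal was thus seen on 1 of its 5 probe sets, and the mean of all 5 gave a Cbx3 difference of -0.50.

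**Figure D2:**
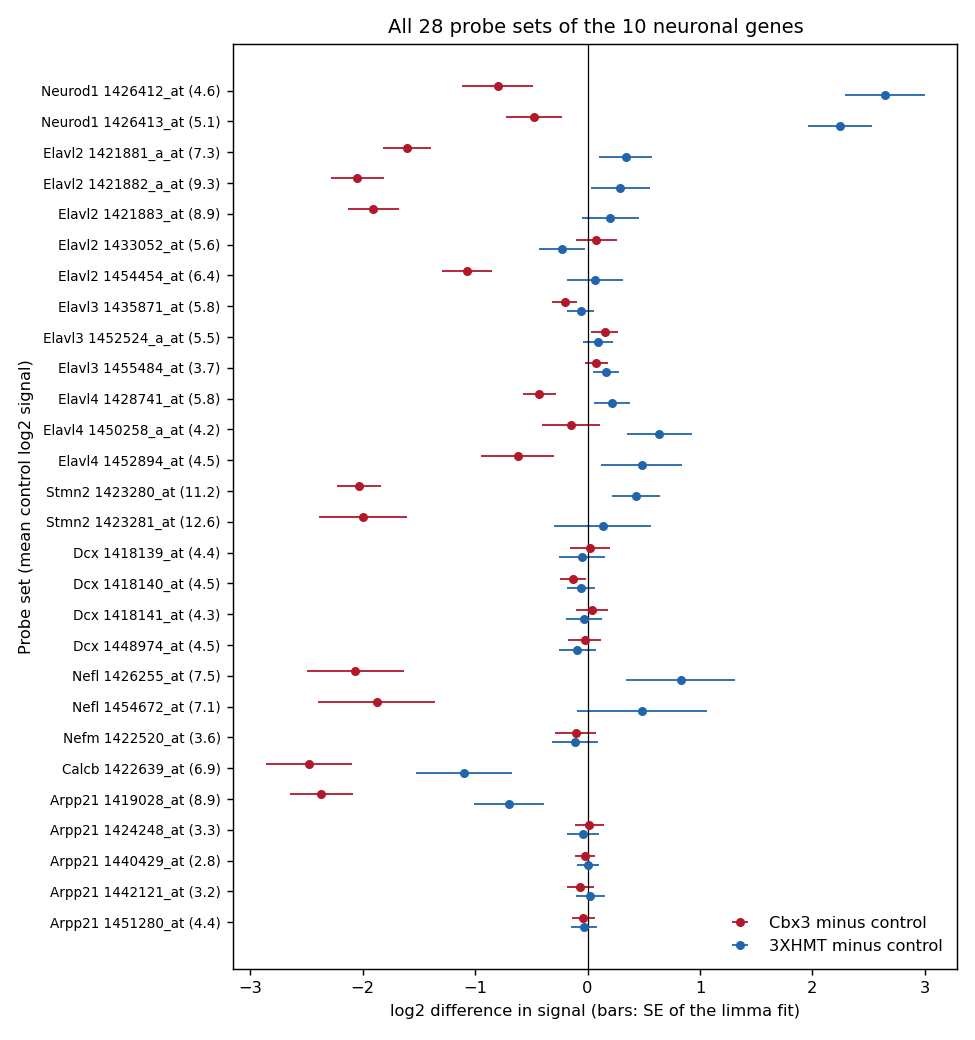
Log2 difference in signal of each of the 28 probe sets, for Cbx3 minus control and 3XHMT minus control, with bars of 1 SE from the limma fit over all probe sets and the mean control signal in brackets. Differences near -2 for Cbx3 belong to Elavl2, Stmn2, Nefl, Calcb and Arpp21, the dim probe sets of Dcx, Nefm and Arpp21 lie at 0, and the 2 Neurod1 probe sets alone exceed 2 for 3XHMT.

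Over the 10 genes at their brightest probe set, the median Cbx3 difference was -1.24 and the values ranged from -2.48 to -0.02, where the median of all 18193 genes was 0.01. Cbx3 and control arrays did not overlap for 7 of the 10 genes, all lower, and 6.78% of all genes were lower without overlap. Of their 28 probe sets 13 were lower without overlap, against 5.84% of all probe sets. In limma with Benjamini-Hochberg adjustment over all genes, Elavl2, Calcb and Arpp21 were among the 35 genes called lower, which are 0.192% of those tested, and 0 of the 10 among the 0.253% called higher. With the 18S sets as a block the called members were 5, with Stmn2 and Nefl added. Nothing is read from these counts, since the contrast chose the genes. The whole count of 81 calls in either direction (0.445% of genes) was 2 without Cbx3 replicate 2 and at most 34 without any other array. The median 3XHMT difference was 0.04, with a range of -1.10 to 2.24. Calcb and Arpp21 were lower without overlap, as were 7.1% of all genes, and Neurod1 was higher without overlap, as were 9.28%. Neurod1 was among the 37 genes called higher, 0.203% of all genes, and 0 of the 10 were among the 0.0275% called lower. The count of 42 in either direction (0.231%) was 3 without 3XHMT replicate 1. Both comparisons share the 3 control arrays.

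The labels name no pairing of arrays. Same-numbered control and Cbx3 arrays share 18S sets and deviate alike from their group means, so they were taken as pairs. Each pair gives a difference of its own. For Elavl2 the Cbx3 minus control differences were -1.77, -2.01 and -2.36 in pairs 1, 2 and 3. For Stmn2 they were -1.28, -2.68 and -2.03, and for Nefl -1.14, -2.55 and -2.51. For Calcb they were -3.17, -1.97 and -2.29, and for Arpp21 -2.07, -2.23 and -2.81. Each of the 5 genes was lower in every pair, and the pair with the smallest difference was pair 1 for 4 of them and pair 2 for Calcb.

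**Figure D3:**
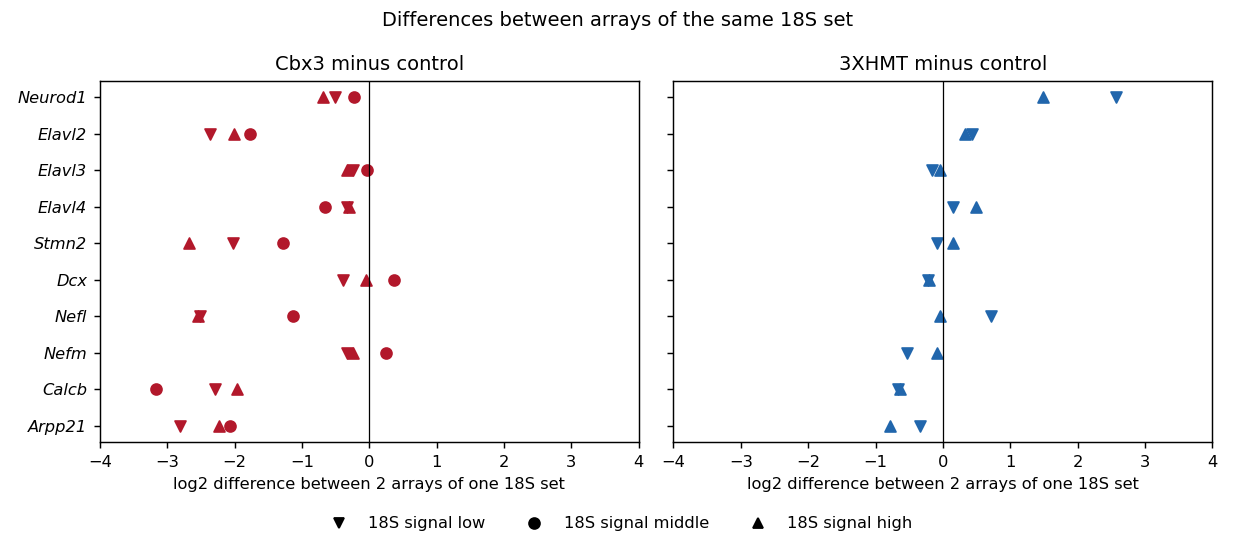
Log2 difference between 2 arrays of the same 18S set, for Cbx3 minus control (3 sets) and 3XHMT minus control (2 sets), at the brightest probe set of each gene. Elavl2, Stmn2, Nefl, Calcb and Arpp21 lie below -1 in all 3 sets for Cbx3, while Neurod1 lies at 1.48 and 2.57 for 3XHMT.

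Within the 18S sets the 3XHMT differences were -0.64 and -0.66 for Calcb, -0.79 and -0.35 for Arpp21, 0.33 and 0.44 for Elavl2, 0.15 and -0.08 for Stmn2, and -0.04 and 0.71 for Nefl. Calcb and Arpp21 were lower in both, by less than in any Cbx3 pair. In the direct difference of 3XHMT from Cbx3, Elavl2 stood 5.05-fold higher in 3XHMT cells, Stmn2 4.38-fold and Arpp21 3.19-fold. The Cbx3 mean of Arpp21, 6.48, lay within the olfactory receptor range, though above its 95th percentile. For Nefl, Neurod1 and Calcb the Cbx3 means were 5.48, 4.63 and 4.39, at the level of silent genes, and the signal ratios of 7.43, 6.59 and 2.59 are to those signals. These 6 and Elavl4 did not overlap between the 2 groups, and 13.2% of all genes were higher in 3XHMT without overlap.

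Genes other than the 10 were tested in lists, which were drawn up with earlier results of these data known. The 8 lists of neuronal and neural genes hold 195 genes outside the set, of which 180 were measured. In limma 0 of the 180 passed over all genes in either comparison with control. For 3XHMT against Cbx3, 4 passed as higher and 0 as lower (0.808% and 0.704% of all genes), and with the 18S sets as a block 14 as higher and 6 as lower (4.69% and 4.43%). For Cbx3 against control, 13 were lower and 4 higher at an unadjusted p under 0.05, which for lower genes is 7.22% of the list and 4.79% of all genes (higher: 4.77% of all genes). The list was evenly divided, with 90 higher and 90 lower and a median of 0.00. For Cbx3 and control arrays the 18S sets coincide with the replicate numbers, and for 3XHMT arrays they do not. With the 18S sets as a block over all 8 arrays, 15 of the 180 passed as lower and 3 as higher, where 3.5% of all genes passed as lower and 3.09% as higher. For 3XHMT against control, 12 were higher and 5 lower at an unadjusted p under 0.05 (2.63% of all genes each way), and with the block 3 passed as higher and 4 as lower (0.868% and 0.89% of all genes).

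**Figure D4:**
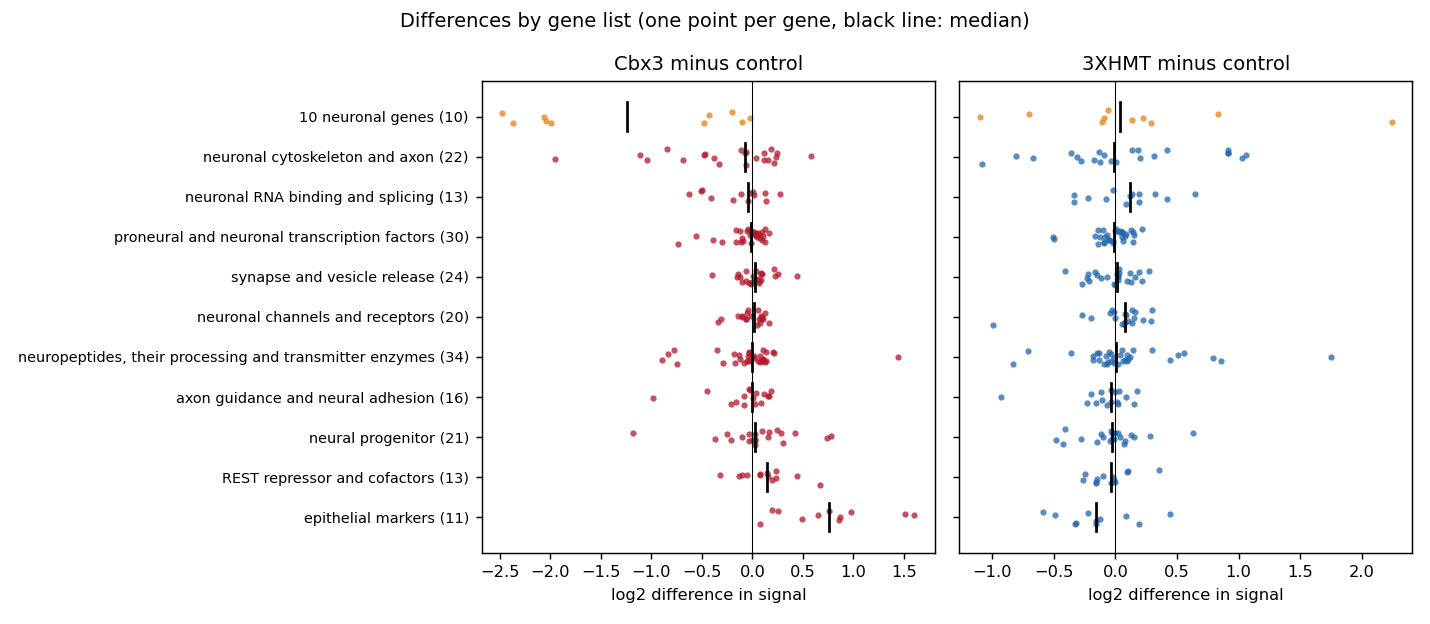
Log2 differences of the 10 neuronal genes, the 8 neuronal and neural lists, REST with its cofactors and the epithelial markers, for Cbx3 minus control and 3XHMT minus control, with 1 point per measured gene, black lines at list medians and the number of genes in brackets. For Cbx3 the list medians lie near 0 except those of the 10 genes chosen for their values, at -1.24, and of the epithelial markers, at 0.76. For 3XHMT the medians of these 2 lists are 0.04 and -0.16.

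Axon and cytoskeleton genes included several that were lower in Cbx3 cells under the block. Of 22 measured, 0 passed without the block, where 6 were lower and 0 higher at an unadjusted p under 0.05 (4.79% and 4.77% of all genes). With the block 5 passed as lower: Uchl1, Map1b, Dclk1, Crmp1 and Dpysl3 (3.5% of all genes). For 3XHMT against control 0 passed, with 4 higher, Crmp1 among them, and 2 lower at an unadjusted p under 0.05 (2.63% of all genes each way). With the block Map2 and Dpysl3 passed as lower for 3XHMT (0.89% of all genes). Uchl1, a ubiquitin hydrolase abundant in neurons, read 5.66, 4.93 and 4.97 in the Cbx3 arrays, 7.51 and 8.59 in the 3XHMT arrays, and 7.79, 6.91 and 6.70 in the control arrays. It stood 3.86-fold lower in Cbx3 cells (limma adjusted p = 0.0796; 0.00148 with the block). Map1b, a microtubule-associated protein of growing axons, read 7.18, 6.97 and 7.34 in the Cbx3 arrays against 7.86, 8.31 and 8.68 in the control arrays, 2.17-fold lower (adjusted p = 0.124; 0.00349 with the block). Crmp1, of semaphorin signalling, stood 1.79-fold below control (0.246; 0.0175). Dclk1, a kinase related to Dcx, stood 1.61-fold below it (0.154; 0.00913). In control and Cbx3 cells Crmp1 averaged 5.97 and 5.13, and Dclk1 4.96 and 4.27. All lay within the olfactory receptor range, so expression of these genes is not shown in either group.

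Of 17 measured relatives of the chosen genes, 0 passed in limma for either comparison with control. At an unadjusted p under 0.05, 1 was lower for Cbx3 and 2 higher for 3XHMT (4.79% and 2.63% of all genes). In the block fit Dclk1 passed as lower for Cbx3. It was 2.15-fold higher in 3XHMT than in Cbx3 cells without the block (adjusted p = 0.0313). The Dclk1 means of 5.37 in 3XHMT and 4.27 in Cbx3 cells lay within the olfactory receptor range. Stmn3, Nefh, Dclk1 and Dclk2 lay above control without overlap in the 3XHMT arrays, as did 9.28% of all genes. Stmn1, the stathmin of dividing cells, differed by -0.23 between Cbx3 and control (adjusted p = 0.874). The heavy neurofilament gene Nefh averaged 4.84 ± 0.16 in Cbx3 cells, 5.75 ± 0.51 in 3XHMT cells and 4.72 ± 0.41 in control cells, with a 3XHMT difference of 1.03 (adjusted p = 0.381; 0.145 with the block). Neurod2, Neurod4 and Neurod6, relatives of Neurod1, differed between 3XHMT and control by 0.04, 0.22 and 0.06 (adjusted p = 1.00 each).

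Neuronal transcription factors were measured for 30 genes, of which 0 passed and 0 had an unadjusted p under 0.05 in either comparison. With the block, Sox11, a factor of immature neurons, was lower in Cbx3 cells by 1.66-fold (adjusted p = 0.575; 0.00945 with the block). Of the 24 synapse genes Sncb alone passed with the block, 1.36-fold higher in Cbx3 cells (adjusted p = 0.245; 0.0292 with the block). Of 20 channel and receptor genes 0 passed in Cbx3 cells in either fit, and 0 had an unadjusted p under 0.05 there. Of the 13 neuronal splicing and RNA-binding genes, Ptbp2, Msi1 and Khdrbs3 passed as lower in Cbx3 cells with the block. Their adjusted p was 0.0470, 0.0446 and 0.0432, against 0.621, 0.730 and 0.216 without it. Khdrbs3 averaged 3.94 in control and 3.53 in Cbx3 cells, within the olfactory receptor range, so its expression is not shown.

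Of 34 measured peptide and transmitter genes, 0 passed in limma for either comparison with control. At an unadjusted p under 0.05, 1 was higher and 2 lower for Cbx3 (4.77% and 4.79% of all genes). For 3XHMT 6 were higher and 1 lower at that p (2.63% of all genes each way). With the block 1 passed as higher and 4 as lower for Cbx3, Pcsk1n among the lower ones (3.09% and 3.5% of all genes). For 3XHMT 3 passed as higher with the block (0.868% of all genes). Slc17a6, a vesicular glutamate transporter, averaged 6.87 ± 0.32 in Cbx3 cells, 8.56 ± 0.23 in 3XHMT cells and 7.77 ± 0.49 in control cells. It passed with the block as lower in Cbx3 cells (adjusted p = 0.238; 0.00295 with the block) and as higher in 3XHMT cells (0.769; 0.0122). Trh, thyrotropin-releasing hormone, was also lower in Cbx3 cells and higher in 3XHMT cells with the block, at 1.78-fold and 3.36-fold (adjusted p = 0.684 and 0.484; 0.0120 and 0.00300 with the block). Tac2 was lower in Cbx3 cells (1.71-fold, adjusted p = 0.424; 0.00470), and Penk, which encodes enkephalin, was higher (2.72-fold, 0.412; 0.0324). Sst, somatostatin, was higher in 3XHMT cells (1.81-fold, 0.151; 0.00603).

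Of 16 guidance and adhesion genes, Ncam1 passed with the block as lower in both groups, 1.97-fold in Cbx3 cells and 1.90-fold in 3XHMT cells (adjusted p = 0.124 and 0.377; 0.00189 and 0.0290 with the block). Among 21 neural progenitor genes, Zic1 was lower (2.26-fold, 0.157; 0.00409) and Lhx2 higher (1.71-fold, 0.178; 0.0207) in Cbx3 cells. In control and Cbx3 cells Zic1 averaged 6.23 and 5.05, and Lhx2 4.36 and 5.13, all within the olfactory receptor range. The repressor Rest averaged 10.84 ± 0.24 in Cbx3 cells, 10.49 ± 0.04 in 3XHMT cells and 10.40 ± 0.29 in control cells, a Cbx3 difference of 0.44 that did not pass (adjusted p = 0.454; 0.0728 with the block). Of the 13 measured REST complex genes, 0 passed in limma for either comparison with control. For Cbx3, 2 were higher and 1 lower at an unadjusted p under 0.05 (4.77% and 4.79% of all genes). With the block only Ctdspl, a phosphatase that works with REST, was higher in Cbx3 cells (1.59-fold, 0.114; 0.00878).

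Genes beside the chosen genes in the GRCm38.p6 annotation were tested as well. The 18 nearest measured neighbours that are not members differed by -0.55 to 1.16 between Cbx3 and control, and by -0.23 to 0.25 between 3XHMT and control. In limma 0 passed for either comparison, with 2 and 0 at an unadjusted p under 0.05. Of all genes, 4.79% were lower and 4.77% higher at that p for Cbx3, and 2.63% each way for 3XHMT. With the block 3 passed for Cbx3, where 3.5% of all genes passed as lower and 3.09% as higher. Hey1, a Notch target beside Stmn2, was 2.24-fold higher (adjusted p = 0.241, and 0.00179 with the block). Dmrta2 beside Elavl4 was higher, by 0.89 on the log2 scale, and Insc beside Calcb was lower, by 0.55. The neighbours of Neurod1, Cerkl and Itprid2, differed between 3XHMT and control by -0.14 and -0.23 (adjusted p = 1.00 each).

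Markers of other cell types were read beside these results. All 11 epithelial markers were higher in Cbx3 than in control cells, with list means of 8.55 to 8.87 in the Cbx3 arrays, 7.81 to 7.89 in the 3XHMT arrays and 7.76 to 8.37 in the control arrays. In limma 0 of the 11 passed for Cbx3 against control, and 7 passed as higher with the block, as did 3.09% of all genes. The fibroblast list ran from 6.10 to 6.17, 6.08 to 6.17 and 6.02 to 6.11 in the same groups, the astrocyte list from 5.47 to 5.66, 5.49 to 5.73 and 5.35 to 5.72, the pancreatic endocrine list from 4.97 to 5.32, 5.09 to 5.14 and 4.97 to 5.17, and the thymocyte list from 5.06 to 5.12, 5.11 to 5.21 and 5.01 to 5.23. The neural crest list ran from 6.48 to 6.73, 6.26 to 6.46 and 6.45 to 6.64. The oligodendrocyte and Schwann list ran from 6.92 to 7.05, 6.60 to 6.82 and 6.88 to 6.97, and the muscle list from 5.26 to 5.42, 5.31 to 5.51 and 5.17 to 5.43. The 9 pluripotency markers ran from 7.88 to 8.37, 8.91 to 9.499 and 7.56 to 8.16. Each of the 9 stood above control in 3XHMT cells, and in limma 3 passed: Nanog, Zfp42 and Dppa4. In Cbx3 cells 4 of the 9 were higher and 5 lower than in control cells, with a median difference of -0.15. Nanog alone passed there, 9.94-fold above control (adjusted p = 0.0151). The part of the pluripotency markers in the higher Neurod1 signal and that of the epithelial markers in the lower neuronal signal was not tested.

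The genes whose profile over the 8 arrays was most like the mean profile of the 10 genes were found by Pearson correlation among 2894 genes with a range of at least 1 log2 unit. They were Pcdhb17, a protocadherin (r = 0.99), Erlin2 (0.988), Ap1s2 (0.985), Tmem229b (0.968), Fxyd6 (0.963), the embryonic globin gene Hbb-y (0.96), Ctnnd2, delta catenin of neurons (0.959), and Tmem47 (0.958). Their Cbx3 differences ran from -2.43 for Hbb-y to -0.81 for Tmem229b, and their 3XHMT differences from -0.18 for Tmem47 to 0.64 for Hbb-y. These correlations describe 8 arrays in 3 groups and carry no test.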

How the data were processed

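The deposited log2 values cover 45101 probe sets on 8 arrays. Per the submitters' processing notes, the authors used RMA, whose version and settings the sources used here do not state. RMA subtracts background and equalises the distributions of arrays before probes are combined, which removes any shift common to most genes. The number of arrays limits precision, and dim signal compresses differences.

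Gene names come from the platform annotation. It gave 1 symbol to 34945 probe sets, several to 932 and none to 9160, besides 64 control probe sets. Each gene was represented by its brightest probe set by mean signal, for 18193 genes. A linear model with 1 mean per group was fitted over the 8 arrays by lmFit and eBayes (limma 3.58.1, R 4.3.3), with two-sided tests and 5 residual degrees of freedom. A gene was called at a Benjamini-Hochberg adjusted p under 0.05 over all genes. Standard errors of member probe sets come from the same fit over all probe sets. The alternatives tried are in the closing section.

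The members, lists and tests were chosen with earlier results of these data known. The named genes are the members, the targets, up to 4 genes per list and comparison with the lowest p, list genes past the threshold, Rest, relatives of the members, the nearest measured neighbours and the genes most alike in profile. Genes named to spell out a count, such as Dpysl3 and Sox11, and the counts over olfactory receptors were chosen after the values were seen. So were the single genes read for cell identity in control cells, such as Mog, Gfap, Rag1, Pou5f1, Mapt, Map2 and Snap25. Across genes, the deviations of arrays from their group mean correlated by 0.57, 0.585 and 0.744 between same-numbered control and Cbx3 arrays. Between same-numbered control and 3XHMT arrays they correlated by 0.106 and -0.56. From these values, and not from the labels, the numbers were taken to pair control with Cbx3 only.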

Additional observations from a re-analysis of the deposited data

How the results depend on the processing

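The counts of calls depend on how the 18S sets enter the fit. The block cannot move a difference between Cbx3 and control, and for 3XHMT against control it gave 0.57 for Nefl in place of 0.83, 0.45 for Elavl2 in place of 0.29 and -0.22 for Nefm in place of -0.11. With the 18S sets as a block the fit called 1199 genes for Cbx3 against control, 320 for 3XHMT against control and 1660 for 3XHMT against Cbx3, in place of 81, 42 and 275, and 18 and 7 of the 180 list genes in place of 0 and 0. With the replicate number as a block (replicate block) it called 312, 97 and 655 genes and 6 and 2 list genes. The replicate block with the Cbx3 and control arrays alone, chosen after seeing the data, called 1448 genes and 20 list genes. With only the 2 groups compared the counts were 27 for Cbx3 and 10 for 3XHMT against control, and without dim probe sets 9 for 3XHMT against control. Without 1 array in turn they ranged from 2 to 34, from 3 to 22 and from 22 to 273, and the list counts stayed at 0.

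The median difference of the 10 genes ranged from -1.32 to -1.06 for Cbx3 and from -0.04 to 0.09 for 3XHMT against control without 1 array in turn. It was -0.57 for Cbx3 with the mean of all probe sets of a gene, which averages dim probe sets into Elavl2 and Arpp21. Under that setting Elavl3 differed by 0.0089 in place of -0.20, a change of sign. Of 318 recomputed differences of the 10 genes, many are fixed by the construction of the setting, and 165 changed in value. Of those, 155 moved by less than the spread between arrays, and 10 by more or, where arrays did not overlap, in sign. Some of the 155 changed sign as well, such as Stmn2 for 3XHMT, 0.14 with all arrays and -0.10 without 3XHMT replicate 2. Without dim probe sets 6 of the 10 genes had no value, so no median was computed there. Dim signal limits what can be said of Dcx, Nefm, Elavl3, Elavl4, Calcb and, in control cells, Neurod1.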
